A study of Homo sapiens with 3 samples.

Results

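Major histocompatibility complex (MHC) class I presentation was followed through 9 genes: the heavy chains HLA-B, HLA-C and HLA-E, the light chain B2M, the peptide transporter subunits TAP1 and TAP2, the loading factor TAPBP, and the peptide-trimming enzymes ERAP1 and ERAP2. The genes were taken by their symbols, with no measured value in the rule, and all 9 were found among 13479 listed entries. The set was nevertheless chosen with earlier results of these data known. TAP2 stood in the table under 2 identifiers with identical values, so the 9 genes filled 10 entries, and it was counted once. Each of the 9 reached a mean of at least 5 CPM (tags set to a common library total) over the 3 libraries, a minimum passed by 10788 entries in all.

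The cells were EBC-1, an established line from a human lung squamous cell carcinoma, with no genetic change beyond the line's own given in the labels. One set of cells received RAB11A siRNA 1, another RAB11A siRNA 2, and the control set a negative control siRNA. All 3 were electroporated with 600 pmol of siRNA, at a labelled time of 72 h after plating, and kept in the same serum-containing medium. Each condition was measured in 1 CAGE library (cap analysis of gene expression), a method that counts short tags from the capped 5′ ends of transcripts, and both ratios to control use the same control library.

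A class I molecule is a polymorphic heavy chain held together by the invariant light chain B2M and a short peptide. Proteasomes and cytosolic peptidases cut proteins to peptides, the TAP1 and TAP2 pair carries them into the endoplasmic reticulum, tapasin (TAPBP) bridges that transporter to empty class I molecules, and ERAP1 and ERAP2 shorten the peptides to a length that fits. Filled molecules travel to the cell surface, where T cells and natural killer cells read them, and part of the surface pool is taken in and recycled through endosomes. RAB11A, the targeted gene, is a small GTPase of recycling endosomes.

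RAB11A itself stood at 7.48 CPM with siRNA 1, 22.7 CPM with siRNA 2 and 135 CPM with control siRNA, log2 ratios at -4.01 with siRNA 1 and -2.53 with siRNA 2 to control, so both libraries labelled as RAB11A siRNA held less of it. The deposited CPM values were whole multiples of 1 tag, and every library came to a total of 24999950 tags. Of the markers of the labelled tissue, 4 of 6 epithelial ones were listed, with summed levels of 1013 CPM with siRNA 1, 878 CPM with siRNA 2 and 828 CPM with control siRNA. Only 3 of 10 squamous markers were listed (SFN, PERP and S100A2, together 196 CPM with siRNA 1, 186 CPM with siRNA 2 and 197 CPM with control siRNA), and TP63, SOX2 and KRT5 matched no entry in the values used here. Of 8 leukocyte markers, 1 was listed, CD68 at 21.1 CPM with siRNA 1, 31.4 CPM with siRNA 2 and 45.2 CPM with control siRNA, and the defining marker PTPRC matched no entry. Fibroblast markers summed to 3.32 CPM with siRNA 1, 2.6 CPM with siRNA 2 and 2.84 CPM with control siRNA, and none of 9 endothelial and alveolar markers matched an entry. The part of these differences in the results below was not tested.

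Promoters of the class I genes are known to share short elements: a kappaB site, an interferon-response element bound by IRF proteins, and a module whose X2 and Y boxes hold the complex that recruits NLRC5. CAGE tags begin at the transcript starts in use, but values per gene do not show which start that was. Stretches before annotated starts are shown for 5 genes, chosen to cover the chains of the molecule (HLA-B, HLA-C, B2M), the transporter (TAP1) and trimming (ERAP1). Each runs 5′ to 3′ on the gene's own strand from 200 bases before to 20 bases from the RefSeq start, from RefSeq on GRCh38.p14. Capitals mark matches, on either strand, to the IRF core AANNGAAA or its longer form AAANNGAAA, the kappaB pattern GGNNTTNCC, the X2 core TGACGC or the Y box CCAAT. The positions are chr6:31357160-31357379 on the minus strand for HLA-B, chr6:31272073-31272292 on the minus strand for HLA-C, chr15:44711317-44711536 on the plus strand for B2M, chr6:32853685-32853904 on the minus strand for TAP1 and chr5:96807926-96808145 on the minus strand for ERAP1.
HLA-B: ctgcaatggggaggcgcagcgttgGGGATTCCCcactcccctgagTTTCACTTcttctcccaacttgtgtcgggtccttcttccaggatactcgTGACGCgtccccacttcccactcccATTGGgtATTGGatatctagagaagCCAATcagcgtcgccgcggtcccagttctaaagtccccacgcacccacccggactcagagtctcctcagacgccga
HLA-C: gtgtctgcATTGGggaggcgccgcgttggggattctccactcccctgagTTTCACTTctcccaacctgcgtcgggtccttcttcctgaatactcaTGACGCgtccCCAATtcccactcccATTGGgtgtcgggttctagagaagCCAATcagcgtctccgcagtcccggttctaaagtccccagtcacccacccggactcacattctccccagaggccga
B2M: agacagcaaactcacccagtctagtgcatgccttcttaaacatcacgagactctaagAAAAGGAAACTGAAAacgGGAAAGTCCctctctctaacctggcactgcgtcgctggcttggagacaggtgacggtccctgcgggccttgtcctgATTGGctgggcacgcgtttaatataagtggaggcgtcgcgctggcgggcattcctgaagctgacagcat
TAP1: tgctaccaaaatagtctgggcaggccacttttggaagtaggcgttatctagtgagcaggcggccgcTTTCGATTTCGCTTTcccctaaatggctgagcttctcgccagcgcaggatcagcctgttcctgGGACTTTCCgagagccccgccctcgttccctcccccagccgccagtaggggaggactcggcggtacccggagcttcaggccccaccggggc
ERAP1: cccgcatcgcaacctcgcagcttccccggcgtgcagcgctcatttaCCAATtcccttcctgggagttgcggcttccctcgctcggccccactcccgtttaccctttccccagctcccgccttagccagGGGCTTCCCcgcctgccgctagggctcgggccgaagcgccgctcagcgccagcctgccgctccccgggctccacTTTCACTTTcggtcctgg

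HLA-B and HLA-C both carried an IRF core, then an X2 core, then Y boxes nearer the start, and HLA-C held a further Y box before its IRF core. The X2 core began 106 bases before the start in HLA-B and 105 before it in HLA-C. HLA-B also held a kappaB match beginning 176 bases before the start, and HLA-C held none in its window. In B2M and TAP1 a pair of overlapping IRF cores was followed by a kappaB match: the pair lay 142 to 129 bases before the start in B2M and 134 to 121 bases before it in TAP1. In ERAP1 the IRF core of this window lay 3 to 10 bases after the start. TAP1 and ERAP1 have another window each, and the stretch shown is from the window with more kinds of match. The window not shown held only a kappaB match in TAP1 and only IRF cores in ERAP1. Of the 9 genes, 8 had promoter windows in the RefSeq table, 11 windows of 300 bases in all, and HLA-E had no entry. The IRF core was found in windows of 8 of these 8 genes and in 22.8% of all 35116 promoter windows, and AAANNGAAA, which contains it, in 6 of 8 genes and 10.5% of windows. The kappaB pattern occurred in 5 of 8 genes (B2M, ERAP1, HLA-B, TAP1 and TAPBP) and 17.1% of windows, the X2 core in 3 of 8 (HLA-B, HLA-C and TAP2) and 9.14%, and the Y box in 5 of 8 and 34.6%. A gene with several windows has more chances of a match than a single window. Counted by window, as the shares are, the IRF core was in 9 of 11 and AAANNGAAA in 6 of 11. The kappaB pattern was in 6 of 11, the X2 core in 3 of 11 and the Y box in 5 of 11. These matches describe letters in a window and do not show that a factor was bound.

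**Figure D1:**
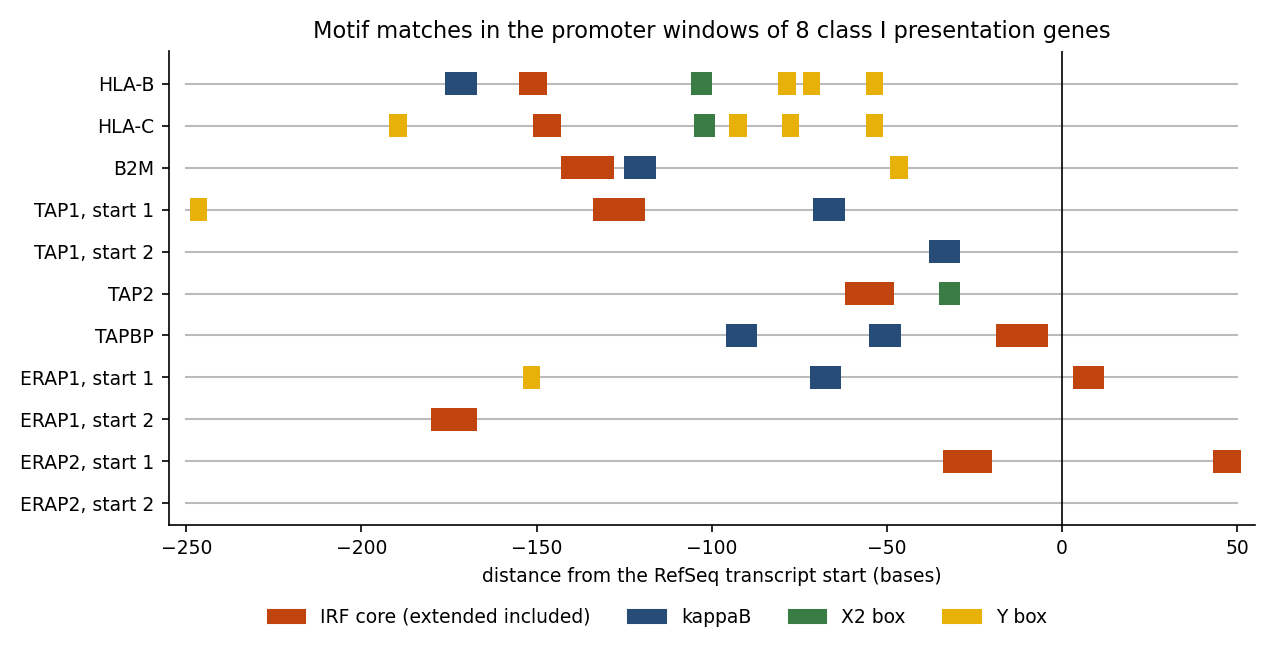
Positions of the motif matches in the 300-base RefSeq promoter windows of the class I presentation genes, in bases from the RefSeq start, with one row per window and one colour per motif. HLA-B and HLA-C each show an IRF core, an X2 box and Y boxes, while ERAP1, ERAP2 and TAP1 have 2 windows each that differ in their matches.

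The levels of the 9 genes spanned a wide range in every library, and their order was the same in all 3. A CAGE tag marks 1 transcript end, so levels can be compared between genes without regard to length. B2M was highest, at 2275 CPM with siRNA 1, 2250.3 CPM with siRNA 2 and 2055 CPM with control siRNA, at percentile 99.8 of listed entries with siRNA 1, 99.7 with siRNA 2 and 99.7 with control siRNA. HLA-B followed, then HLA-C, TAPBP and HLA-E, all above 92.3% of listed entries in every library. TAP2 and TAP1 lay near the middle of all entries, ERAP1 somewhat higher, and ERAP2 was lowest, at 11.1 CPM with siRNA 1, 8.44 CPM with siRNA 2 and 10.6 CPM with control siRNA. Neighbours in this order were apart by more than their 95% counting intervals, with one exception: with siRNA 2 the interval of TAP2 was 23.2 to 27.2 CPM and that of TAP1 21.1 to 24.9 CPM, which overlap.

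**Figure D2:**
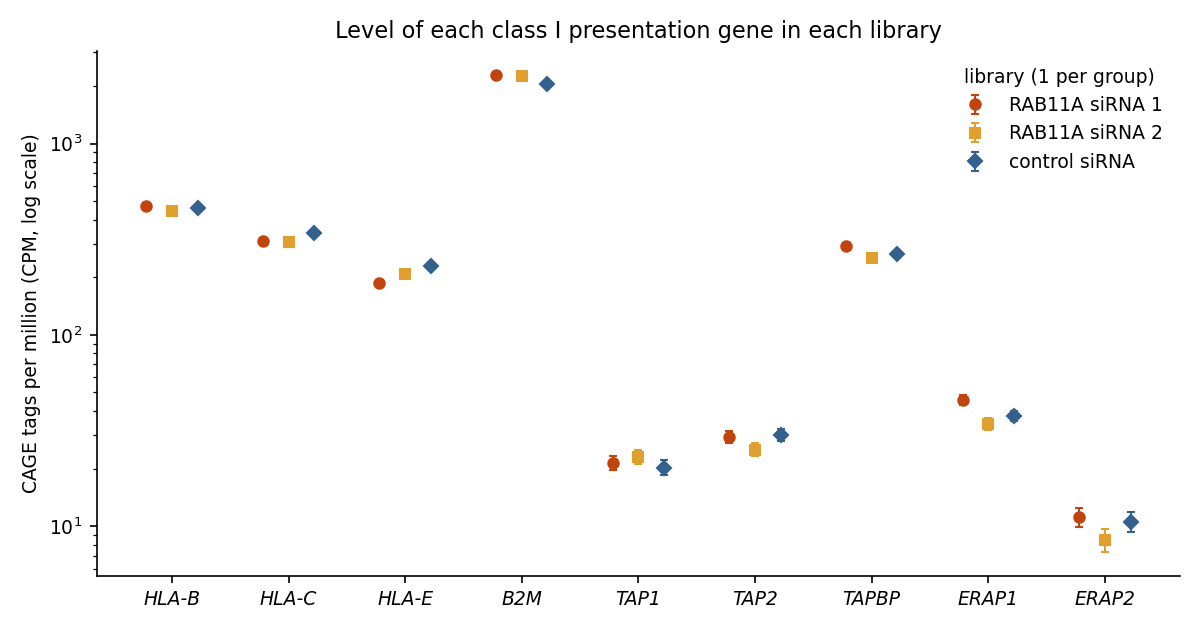
Level of each of the 9 genes in CPM on a log axis, in the libraries with RAB11A siRNA 1, RAB11A siRNA 2 and control siRNA, with 95% exact Poisson intervals. B2M is highest, at 2275 CPM with siRNA 1, 2250.3 CPM with siRNA 2 and 2055 CPM with control siRNA, ERAP2 is lowest, at 11.1 CPM with siRNA 1, 8.44 CPM with siRNA 2 and 10.6 CPM with control siRNA, and the order of the genes does not change between libraries.

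The heavy chains, which bind the peptide, stood differently to control from gene to gene. HLA-B (identifier ENSG00000234745, chr6:31321649-31334844 on the minus strand of GRCh37), a classical heavy chain that presents peptides to cytotoxic T cells, stood at 470.1 CPM with siRNA 1, 443 CPM with siRNA 2 and 461 CPM with control siRNA. Those values are 102% of control with siRNA 1 (95% counting interval 99.5% to 105%) and 96.1% with siRNA 2 (93.6% to 98.7%). HLA-B was thus the heavy chain closest to its control level. Between the siRNA libraries it was at 106% with siRNA 1 relative to siRNA 2 (103% to 109%).

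HLA-C (ENSG00000204525, chr6:31236526-31239907, minus strand), a classical heavy chain that is also a main ligand of killer-cell immunoglobulin-like receptors, stood at 308 CPM with siRNA 1, 307 CPM with siRNA 2 and 342 CPM with control siRNA. Both siRNA libraries lay below the control and beside each other. The level was 90.1% of control with siRNA 1 (87.3% to 92.9%) and 89.8% with siRNA 2 (87% to 92.6%), log2 ratios at -0.15 with siRNA 1 and -0.16 with siRNA 2 with counting standard errors of 0.023 each. Log2 ratios of genes, those of RAB11A above included, are of CPM + 1, which understates the ratios of low genes. The siRNA 1 library was at 100.4% of the siRNA 2 library (97.2% to 104%).

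HLA-E (ENSG00000204592, chr6:30457286-30461971, plus strand), a nonclassical heavy chain that shows leader peptides of other class I chains to the CD94/NKG2A receptor, stood at 186 CPM with siRNA 1, 207 CPM with siRNA 2 and 228 CPM with control siRNA. It was the heavy chain of the 3 farthest from control with siRNA 1, at 81.9% of the control level (78.7% to 85.1%), and at 91% with siRNA 2 (87.6% to 94.5%). Its log2 ratio of -0.29 with siRNA 1 is nevertheless a common size in these libraries: 26.8% of all genes compared lay farther from 0. With siRNA 1 it was also below the siRNA 2 library, at 90% of it (86.5% to 93.7%).

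HLA-F, a low nonclassical chain outside the 9 genes that was named after its values were seen, stood at 11.2 CPM with siRNA 1, 9.44 CPM with siRNA 2 and 7.56 CPM with control siRNA, and its log2 ratios were 0.52 with siRNA 1 and 0.29 with siRNA 2. Of 9 heavy-chain genes and pseudogenes in the list used, 7 were listed and 4 reached the minimum. None of the 4 was 1.5-fold from control, and their medians were -0.06 with siRNA 1 and -0.10 with siRNA 2. With pseudogenes of 1 CPM and more included, the median with siRNA 1 was 0.03, so the direction of that list rests on the minimum used. HLA genes are polymorphic and alike, and tags could be placed on the wrong one. The first 50 bases of the annotated starts of the 9 genes had no other place in GRCh37 with 2 or fewer mismatches, and those of HLA-B and HLA-C differed at 7 of 50 bases. The effect on mapping of the line's own HLA alleles, not given in the sources used here, was not tested.

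B2M (ENSG00000166710, chr15:45003556-45011049, plus strand), the light chain shared by every class I molecule, was higher than control with both siRNAs. In tags it had 56878 with siRNA 1, 56258 with siRNA 2 and 51363 with control siRNA. The level was 111% of control with siRNA 1 (109% to 112%) and 109.5% with siRNA 2 (108% to 111%), and the siRNA 1 library was at 101% of the siRNA 2 library (99.9% to 102%). These are log2 ratios at 0.15 with siRNA 1 and 0.13 with siRNA 2 with standard errors of 0.0088 each. The intervals are narrow because B2M is abundant: 54.5% of all genes lay farther from 0 with siRNA 1 and 56.4% with siRNA 2. In bulk RNA, fewer cells that make a transcript and less of it per cell cannot be told apart.

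Because the chains pair one to one in the molecule, the heavy-chain tags were set against those of B2M. Per 100 B2M tags there were 42.4 tags of HLA-B, HLA-C and HLA-E with siRNA 1 (95% counting interval 41.7 to 43), 42.5 with siRNA 2 (41.9 to 43.1) and 50.1 with control siRNA (49.4 to 50.9). Both siRNA libraries lay below the control by more than the counting intervals and overlapped each other. On the log2 scale these ratios to control, taken from tags with nothing added, were -0.24 with each siRNA. Other chains that pair with B2M are not in this sum. The sum of the 3 heavy chains was 964 CPM with siRNA 1, 956 CPM with siRNA 2 and 1030 CPM with control siRNA, so the difference comes from both sides of the ratio. The log2 ratio of that sum to control was -0.09 with siRNA 1 and -0.11 with siRNA 2, beside 0.15 and 0.13 for B2M. A ratio within a library does not move with its scaling. One library per condition gives no measure of how far such a ratio varies between cultures, and both siRNA values are set against the same control library. Ratios of other gene pairs were not computed as a background.

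**Figure D3:**
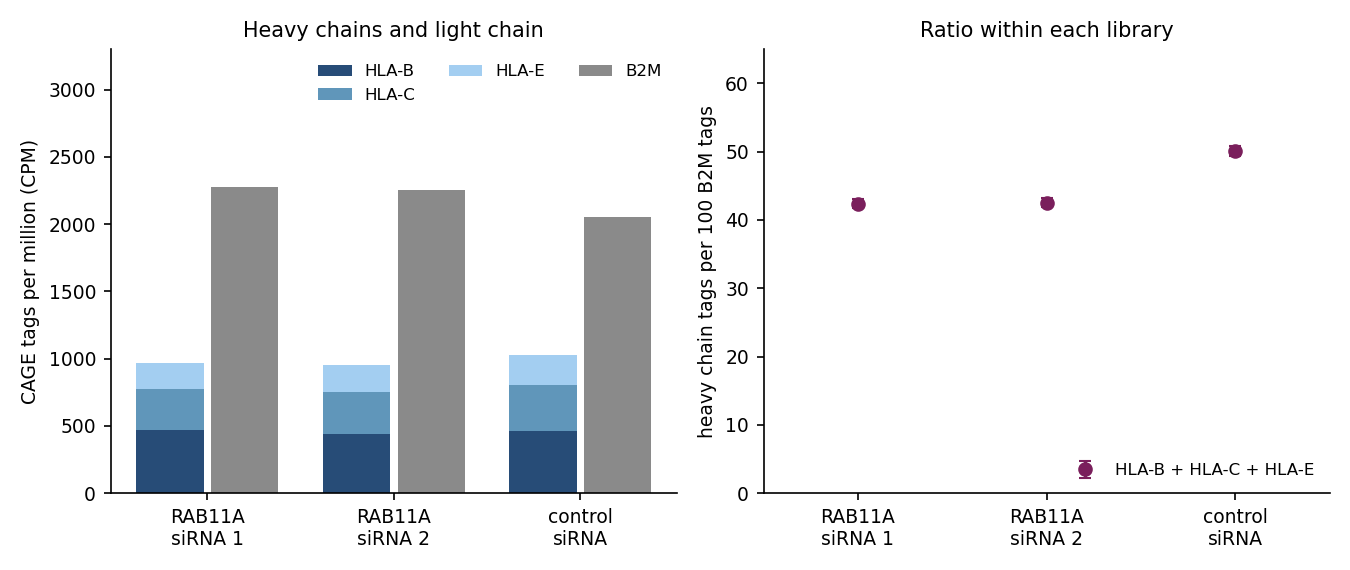
Heavy-chain tags per 100 B2M tags in the libraries with RAB11A siRNA 1, RAB11A siRNA 2 and control siRNA, for HLA-B, HLA-C and HLA-E together (right, with 95% exact counting intervals), beside the CPM of the 3 heavy chains stacked and of B2M (left). The libraries sit at 42.4 with siRNA 1, 42.5 with siRNA 2 and 50.1 with control siRNA.

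The peptide transporter genes were low and stood on different sides of control with siRNA 2. TAP1 (ENSG00000168394, chr6:32812986-32821593, minus strand) encodes one of the paired subunits of the transporter and stood at 21.4 CPM with siRNA 1, 23 CPM with siRNA 2 and 20.2 CPM with control siRNA. Its counts of 536 tags with siRNA 1, 574 with siRNA 2 and 505 with control siRNA leave wide intervals. The level was 106% of control with siRNA 1 (93.8% to 120.1%) and 114% with siRNA 2 (101% to 128%), so the interval with siRNA 1 includes the control level. Between siRNA 1 and siRNA 2 no difference was detectable at this depth, at 93.4% (82.9% to 105%).

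TAP2 (ENSG00000204267, chr6:32789610-32806516, minus strand), the partner subunit, stood at 29.3 CPM with siRNA 1, 25.1 CPM with siRNA 2 and 29.9 CPM with control siRNA. The siRNA 1 library matched the control within counting error, at 98.1% (88.5% to 109%), while the siRNA 2 library was at 84.1% (75.5% to 93.6%). The log2 ratio with siRNA 2 was -0.24 with a standard error of 0.075, and 29.3% of all genes lay farther from 0. The second identifier listed for TAP2 is annotated as a readthrough gene over the same stretch, and tags cannot be split between the entries.

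TAP1 shares its promoter region with PSMB9, an interferon-inducible catalytic subunit of the immunoproteasome that is transcribed in the opposite direction from a RefSeq start 488 bases away. PSMB9 stood at 57.2 CPM with siRNA 1, 47 CPM with siRNA 2 and 42.7 CPM with control siRNA, log2 ratios at 0.41 with siRNA 1 and 0.13 with siRNA 2. TAP1 had log2 ratios at 0.08 with siRNA 1 and 0.18 with siRNA 2 in those comparisons, so PSMB9 lay farther from control with siRNA 1. With siRNA 2 the counting standard errors were 0.084 for TAP1 and 0.06 for PSMB9, and their ratios could not be told apart. The table counts each strand separately.

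TAPBP (ENSG00000231925, chr6:33267471-33282061, minus strand), the tapasin gene, was the most abundant of the loading genes among the 9, at 293 CPM with siRNA 1, 252 CPM with siRNA 2 and 263 CPM with control siRNA. Its 2 siRNA libraries lay on opposite sides of the control. The level was 111% of control with siRNA 1 (108% to 115%) and 95.6% with siRNA 2 (92.4% to 99%). Relative to the siRNA 2 library, the siRNA 1 library was at 116% (112% to 120.2%).

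The wider loading list of 9 genes had 8 at the minimum, none of them 1.5-fold from control with either siRNA, with medians of -0.02 with siRNA 1 and -0.08 with siRNA 2. CALR, the chaperone calreticulin of the loading complex, stood at 1299.8 CPM with siRNA 1, 1100.5 CPM with siRNA 2 and 1073 CPM with control siRNA, log2 ratios at 0.28 with siRNA 1 and 0.04 with siRNA 2. CANX, calnexin, which receives new heavy chains, stood at 756 CPM with siRNA 1, 838 CPM with siRNA 2 and 893 CPM with control siRNA, and its log2 ratios were -0.24 with siRNA 1 and -0.09 with siRNA 2. Calreticulin was thus above control with siRNA 1 where calnexin was below it. PDIA3, the oxidoreductase ERp57 that is joined to tapasin, had log2 ratios at -0.02 with siRNA 1 and -0.15 with siRNA 2, and BCAP31, an export receptor of the endoplasmic reticulum, had -0.04 with siRNA 1 and 0.06 with siRNA 2.

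The trimming enzymes showed the widest gap between the siRNA libraries. ERAP1 (ENSG00000164307, chr5:96096514-96143803, minus strand), the main aminopeptidase of the endoplasmic reticulum that trims class I peptides, stood at 45.7 CPM with siRNA 1, 34.2 CPM with siRNA 2 and 37.6 CPM with control siRNA. The siRNA 1 library was the highest and the siRNA 2 library the lowest. ERAP1 was at 121% of control with siRNA 1 (111% to 132%) and at 90.9% with siRNA 2 (82.7% to 99.8%). Between the siRNA libraries the level with siRNA 1 was 134% of that with siRNA 2 (122% to 146%), a log2 ratio of 0.41 with a standard error of 0.064. In that comparison 5.33% of all genes lay farther from 0.

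ERAP2 (ENSG00000164308, chr5:96211690-96255407, plus strand), the related enzyme that lies next to ERAP1 on chromosome 5, was counted with 278 tags with siRNA 1, 211 with siRNA 2 and 264 with control siRNA. Its intervals of 9.85 to 12.5 CPM with siRNA 1 and 9.32 to 11.9 CPM with control siRNA overlap. The level was 105% of control with siRNA 1 (88.7% to 125%) and 79.9% with siRNA 2 (66.4% to 96.1%). With siRNA 1 it was 132% of the siRNA 2 level (109.8% to 158%), and 7.78% of all genes lay farther from 0. The ERAP1 and ERAP2 log2 ratios between the siRNA libraries, 0.41 and 0.36, were the largest of the 9 genes in any of the 3 comparisons.

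**Figure D4:**
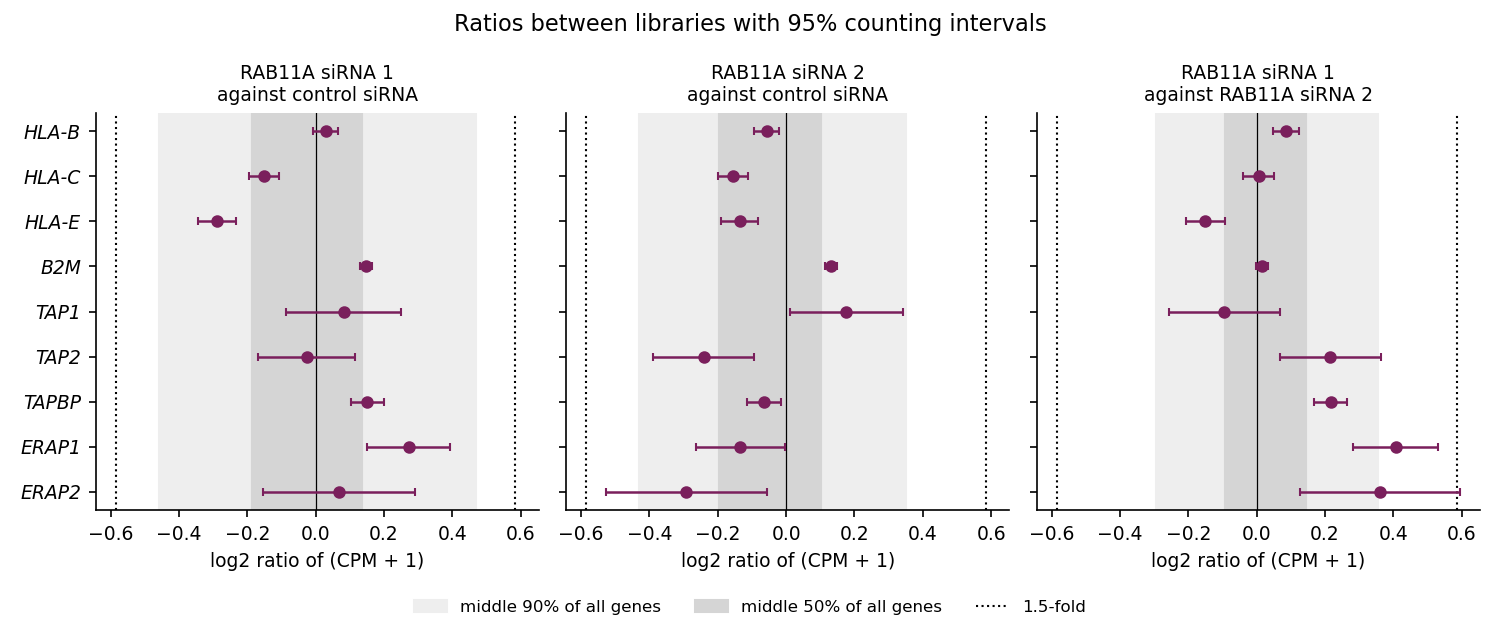
Log2 ratio of CPM + 1 for the 9 genes in the comparisons of RAB11A siRNA 1 with control siRNA, RAB11A siRNA 2 with control siRNA and RAB11A siRNA 1 with RAB11A siRNA 2, with 95% counting intervals; grey bands hold the middle 50% and 90% of all genes and dotted lines mark 1.5-fold. ERAP1 and ERAP2 lie outside the 90% band in the last comparison, at 0.41 and 0.361, and no gene reaches 1.5-fold. ERAP2 is only just outside, as the band ends at 0.356.

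None of the 9 genes was at least 1.5-fold apart in any comparison. That threshold was passed by 5.37% of all genes for siRNA 1 against control, by 3.1% for siRNA 2 against control and by 1.59% for siRNA 1 against siRNA 2, and 2-fold by 0.89%, 0.463% and 0.352% in that order of comparisons. With 9 genes, a count of 0 is near those shares. At a log2 ratio of at least 0.32 in size the counts of the 9 were 0 with siRNA 1 against control, 0 with siRNA 2 against control and 2 between the siRNAs (ERAP1 and ERAP2), against 21.8%, 17.2% and 10.3% of all genes. A binomial test on tags, which compares libraries and not conditions, called 5 of the 9 for siRNA 1 against control, 7 for siRNA 2 against control and 6 between the siRNAs, against 52.5%, 48.3% and 36.8% of all genes in that order of comparisons, and it holds counting error only.

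With siRNA 1, 6 of the 9 genes were above control and 3 below, 1 of them (TAP2) within 0.03 of control and at 0.00 under other scalings of the libraries, on the other side of control with median-ratio scaling. With siRNA 2, 2 were above (B2M and TAP1) and 7 below. Of all genes compared, 45.1% were above control and 54.6% below it with siRNA 1. With siRNA 2 these shares were 41.4% above and 58.2% below. Their median log2 ratio was 0.07 with siRNA 1 and -0.13 with siRNA 2, where all genes compared had -0.03 with siRNA 1 and -0.04 with siRNA 2. The median size of the ratio, regardless of sign, was 0.15 with siRNA 1 and 0.14 with siRNA 2 for the 9 genes, and 0.17 with siRNA 1 and 0.15 with siRNA 2 for all genes. The genes on the same side of control with both siRNAs were HLA-C and HLA-E below it, B2M and TAP1 above it and, by 0.03 or less with siRNA 1, TAP2 below it. The counting intervals of TAP1 and TAP2 with siRNA 1 include the control level. HLA-B, TAPBP, ERAP1 and ERAP2 were above control with siRNA 1 and below it with siRNA 2, where the counting intervals of HLA-B and ERAP2 with siRNA 1 include the control level. The 5 genes of at least 20 CPM whose pair of ratios to control lay nearest the median of the 9 were PHAX, TWF1P1, PSMC5, VDAC3 and STAT6, over 3 libraries.

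The steps before and around loading were described by lists of other genes, whose shares can be read against the 5.37% and 3.1% above. Counts of genes above control can be read against 45.1% of all genes with siRNA 1 and 41.4% with siRNA 2. In the cytosolic peptidase list, 9 of 10 symbols were compared, and the other, NRDC, is another symbol of NRD1. None was 1.5-fold from control, and the medians were 0.11 with siRNA 1 and 0.06 with siRNA 2. THOP1, thimet oligopeptidase, which destroys antigenic peptides in the cytosol, stood at 51.5 CPM with siRNA 1, 49.2 CPM with siRNA 2 and 38.7 CPM with control siRNA, log2 ratios at 0.40 with siRNA 1 and 0.34 with siRNA 2. LNPEP, an aminopeptidase of endosomes related to ERAP1, stood at 36.3 CPM with siRNA 1, 40 CPM with siRNA 2 and 31.4 CPM with control siRNA, and its log2 ratios were 0.21 with siRNA 1 and 0.34 with siRNA 2. NRD1, the peptidase nardilysin, had log2 ratios at 0.24 with siRNA 1 and 0.15 with siRNA 2. TPP2, a large peptidase that trims long proteasome products, had log2 ratios at -0.11 with siRNA 1 and 0.07 with siRNA 2. Over the whole list 5 of 9 genes were above control with siRNA 1 and 6 of 9 with siRNA 2.

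The immunoproteasome list held 7 genes, none 1.5-fold from control, with medians of 0.05 with siRNA 1 and 0.08 with siRNA 2. Its members did not share a direction. Beside PSMB9, the catalytic subunit PSMB10 stood at 20 CPM with siRNA 1, 19.8 CPM with siRNA 2 and 23.6 CPM with control siRNA, log2 ratios at -0.23 with siRNA 1 and -0.24 with siRNA 2, and PSMB8, the remaining inducible catalytic subunit, at 36.7 CPM with siRNA 1, 35.7 CPM with siRNA 2 and 36.2 CPM with control siRNA. The activator subunits also differed: PSME1 had log2 ratios at -0.23 with siRNA 1 and -0.24 with siRNA 2, and PSME2 had log2 ratios at 0.20 with siRNA 1 and 0.08 with siRNA 2. Among the 3 standard catalytic subunits that the inducible ones replace, with medians of 0.14 with siRNA 1 and 0.09 with siRNA 2, PSMB6 (the counterpart of PSMB9) stood at 494 CPM with siRNA 1, 469.8 CPM with siRNA 2 and 385 CPM with control siRNA.

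Of 16 transcription factors and cofactors known to act on class I promoters, 15 were compared, with medians of -0.07 with siRNA 1 and -0.20 with siRNA 2. In 1 the ratio was at least 1.5-fold: IRF1, the interferon-response factor that binds the IRF element, was lower with siRNA 2. IRF1 stood at 14.2 CPM with siRNA 1, 10.7 CPM with siRNA 2 and 17.6 CPM with control siRNA, log2 ratios at -0.29 with siRNA 1 and -0.67 with siRNA 2. RELA, a subunit of NF-kappaB, stood at 83.1 CPM with siRNA 1, 77 CPM with siRNA 2 and 105 CPM with control siRNA, and its log2 ratios were -0.33 with siRNA 1 and -0.44 with siRNA 2. NFYA, a subunit of the factor that binds the Y box, stood at 23.1 CPM with siRNA 1, 19.8 CPM with siRNA 2 and 28.6 CPM with control siRNA, and its log2 ratios were -0.30 with siRNA 1 and -0.51 with siRNA 2, and USF2, an E-box factor, had log2 ratios at -0.45 with siRNA 1 and -0.39 with siRNA 2. These 4 were below control in both siRNA libraries and were named by the size of their ratios. Over the list 6 of 15 were above control with siRNA 1 and 4 of 15 with siRNA 2, among them USF1, the partner of USF2 and named after its values were seen, with log2 ratios at 0.38 with siRNA 1 and 0.25 with siRNA 2. NLRC5, the class I coactivator, had a mean below 5 CPM and was not compared, at 5 CPM with siRNA 1, 3.96 CPM with siRNA 2 and 4.8 CPM with control siRNA. Of 9 interferon receptor and signalling genes, 7 were compared, none 1.5-fold from control, with medians of -0.11 with siRNA 1 and -0.08 with siRNA 2. STAT2, which carries the type I interferon signal, had log2 ratios at -0.34 with siRNA 1 and -0.20 with siRNA 2, and the receptor chain IFNAR1 had 0.14 with siRNA 1 and 0.22 with siRNA 2.

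At the far end of the route, 11 of 12 genes of class I surface turnover were compared, with medians of -0.11 with siRNA 1 and -0.10 with siRNA 2, and 1 was at least 1.5-fold higher, with siRNA 1. That gene was MARCH4, a membrane ubiquitin ligase that can take class I molecules from the surface when overexpressed, at 75.1 CPM with siRNA 1, 58.8 CPM with siRNA 2 and 45.6 CPM with control siRNA. Its log2 ratios were 0.71 with siRNA 1 and 0.36 with siRNA 2. RAB22A, a GTPase of the endosomes that return class I molecules, stood at 69.6 CPM with siRNA 1, 101 CPM with siRNA 2 and 93.5 CPM with control siRNA, and its log2 ratios were -0.42 with siRNA 1 and 0.11 with siRNA 2. EHD1, which shapes recycling tubules, had log2 ratios at 0.15 with siRNA 1 and -0.25 with siRNA 2. RAB11B, the close relative of RAB11A, stood at 113 CPM with siRNA 1, 97.4 CPM with siRNA 2 and 124 CPM with control siRNA. The last 3 were not 1.5-fold from control in either library.

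**Figure D5:**
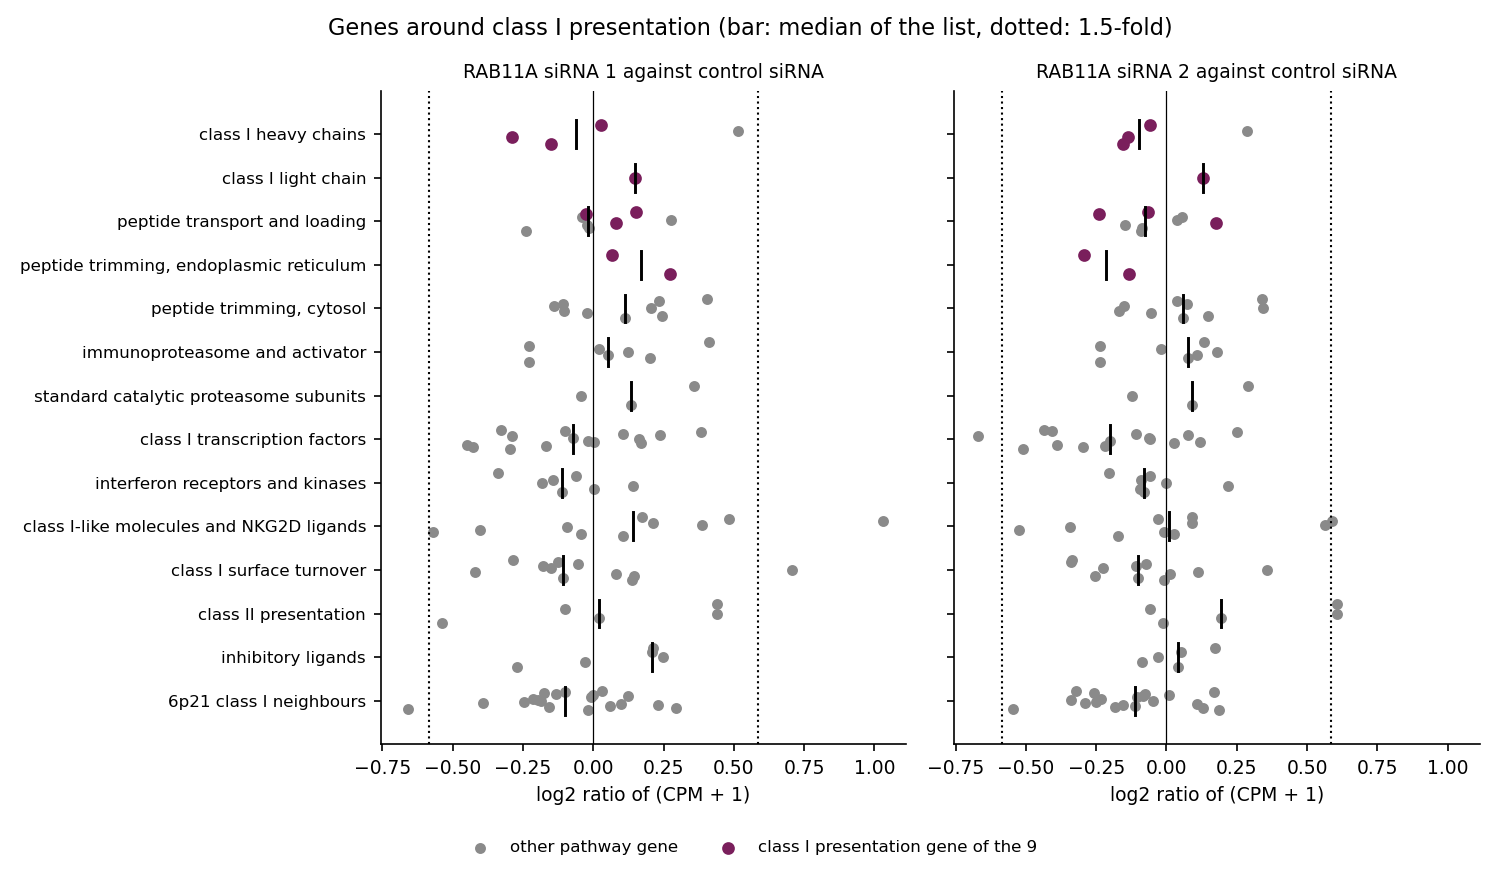
Log2 ratio to control siRNA of CPM + 1 for each gene in 14 lists around class I presentation, with RAB11A siRNA 1 on the left and RAB11A siRNA 2 on the right; purple points are the 9 genes, grey points other genes, black bars list medians and dotted lines 1.5-fold. Nearly all points lie inside the dotted lines, and those outside are single genes of a list or the HLA-DMA and HLA-DMB pair, whose values are identical.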

How the data were processed

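CAGE had been run on total RNA of EBC-1 cells, with 1 library for each of RAB11A siRNA 1, RAB11A siRNA 2 and control siRNA. The authors deposited 1 table of CPM per gene and strand. The submitters' processing notes name hg19, HISAT2 and BWA, with roles, versions, annotation and treatment of multi-mapped tags not given in the sources used here. Such tags would matter most for the HLA genes.

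Of the deposited CPM values, 100% were whole multiples of 1 tag, 0.04 CPM (tolerance 0.13 tags). The recovered total was 24999950 tags in each library, for a reason not given in the sources used here. All counting intervals, standard errors and the binomial test take these tags as sequenced counts. Whether the tags had been scaled before was not tested, and scaling would change the width of the intervals. Summed over genes the tags came to 25204585 with siRNA 1, 25137457 with siRNA 2 and 25174787 with control siRNA. Of entries at 5 CPM (125 tags) or more, 837 had values identical to another entry's. A count of 0 allows up to 3 tags, 0.12 CPM.

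Log2 ratios were taken of CPM + 1 over the 10788 entries with a mean of at least 5 CPM. With 1 library a condition there is no replicate test, and intervals (exact Poisson for a level, Clopper-Pearson for a ratio, 95%) and floors cover counting error only. An exact two-sided binomial test on tags with Benjamini-Hochberg adjustment at 0.05 called 5661 genes for siRNA 1 against control, 5213 for siRNA 2 against control and 3968 between siRNAs; it compares libraries. Alternatives were other pseudocounts, minimum means and thresholds, and scaling by TMM (edgeR 4.0.16 in R 4.3.3) or median ratios. Python 3.11.15, pandas 2.3.3 and scipy 1.17.1 were used, and the calculations were tested on simulated data.

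Motifs were sought on both strands of RefSeq promoter windows, and the start of each gene was searched in GRCh37; gene positions are from GENCODE on GRCh37. The genes, the 14 lists and the motifs were chosen with earlier results of these data known, and 1 gene set down for the heavy-chain list is not reported here. Named genes were the 9, RAB11A, up to 4 others of each list, taken at mean levels of 10 CPM or more by the largest mean absolute ratio over the 3 pairs of libraries, and the 5 nearest genes. Named after their values were seen were HLA-F, NLRC5, USF1, PSMB8, RAET1E, HLA-DRA, HLA-DMA, HLA-DMB and CD68.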

Additional observations from a re-analysis of the deposited data

Results flagged for a closer look

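ERAP1 lay on opposite sides of the control library in the siRNA libraries, with both counting intervals clear of the control level before any further scaling. Its log2 ratio was 0.27 with siRNA 1 and -0.13 with siRNA 2, a gap of 0.41. TAPBP did the same with 0.15 with siRNA 1 and -0.06 with siRNA 2, a gap of 0.22. With 1 library a condition, neither difference was tested, and both ratios share the control library. With TMM scaling TAPBP with siRNA 2 was at -0.01, at the control level within its counting error. ERAP1 with siRNA 2 was at -0.09 under that scaling, with a counting standard error of 0.066. It too was then at the control level within its counting error, so neither gene keeps both intervals clear of control. The share of all genes that lie on opposite sides of the control in this way was not counted. For scale, the binomial test on tags called 52.5% of all genes for siRNA 1 against control and 48.3% for siRNA 2 against control.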

How the results depend on the processing

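The counts of the 9 genes past the threshold and their medians were recomputed under other pseudocounts, minimum means, scalings, thresholds and a tag test. Of 51 such values, 47 were counts within 1.5 times the reported one or medians that moved by less than their genes' 95% counting error. The others were counts: the binomial test on tags called 5 genes for siRNA 1 against control, 7 for siRNA 2 against control and 6 for siRNA 1 against siRNA 2, and a lower threshold of 0.32 on the log2 scale gave 2 in the last comparison. The median of the 9 ranged from 0.05 to 0.09 with siRNA 1, from -0.14 to -0.09 with siRNA 2 and from 0.05 to 0.09 between the siRNAs. None of the 9 genes passed 1.5-fold in any comparison, so no sign could change past that threshold. ERAP1 and ERAP2 between the siRNAs, past 0.32 on the log2 scale as reported, kept their sign in every setting that compared them. ERAP1 ranged from 0.37 to 0.41. ERAP2 ranged from 0.26 to 0.38, so it did not stay past 0.32 in every setting. Differences near 0 did change sign: TAP2 with siRNA 1 was at 0.00 under either scaling and crossed 0 under the median-ratio one. Between the siRNAs, B2M turned to -0.01 and HLA-C to -0.02 under both scalings. HLA-B with siRNA 2 was at -0.01 under either. ERAP2 is not compared at a minimum mean of 20 CPM. Over all genes, 1.5-fold counts were 352 with siRNA 1, 201 with siRNA 2 and 89 between siRNAs at a pseudocount of 5 CPM, and 339 with siRNA 1, 179 with siRNA 2 and 74 between siRNAs at a minimum mean of 20 CPM. With no minimum they were 520 with siRNA 2 and 299 between siRNAs, and at a minimum of 1 CPM 267 between siRNAs. A change of minimum also changes how many entries are compared, so the counts at other minima are not out of 10788. The part this plays in the differences was not tested. No paired analysis was possible because each condition has 1 library. ERAP2, TAP1 and TAP2 have the fewest tags and the widest intervals, and no setting replaces replicates.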

Other observations

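Class I-like molecules and ligands of the natural killer receptor NKG2D were mixed. Of 14 genes 10 were compared, with medians of 0.14 with siRNA 1 and 0.01 with siRNA 2, and 1 was at least 1.5-fold higher than control in each comparison. That gene was RAET1E, an NKG2D ligand of low level, at 9.04 CPM with siRNA 1, 6.4 CPM with siRNA 2 and 3.92 CPM with control siRNA, log2 ratios at 1.03 with siRNA 1 and 0.59 with siRNA 2. ULBP1, another ligand, lay below control, at 15.2 CPM with siRNA 1, 13.9 CPM with siRNA 2 and 20.5 CPM with control siRNA, and its log2 ratios were -0.40 with siRNA 1 and -0.53 with siRNA 2. MICB, a stress-induced ligand, stood at 25.8 CPM with siRNA 1, 17.8 CPM with siRNA 2 and 18.2 CPM with control siRNA, and FCGRT, the neonatal Fc receptor chain that pairs with B2M, at 18.1 CPM with siRNA 1, 27.1 CPM with siRNA 2 and 27.3 CPM with control siRNA. In both, the siRNA 1 library stood apart from the other two.

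Class II presentation genes were low. Of 15 genes 8 were listed and 5 compared, 2 of them with identical values. With those counted once, a choice made after seeing the data, the median of the 4 distinct values was -0.04 with siRNA 1 and 0.09 with siRNA 2. Counted separately it was 0.02 with siRNA 1 and 0.19 with siRNA 2, so the list shows no settled direction with siRNA 1. The entries listed as HLA-DMA and HLA-DMB, which edit class II peptides, carried identical values. These were 9.52 CPM with siRNA 1, 10.8 CPM with siRNA 2 and 6.76 CPM with control siRNA. With siRNA 2 they were at least 1.5-fold higher than control. Tags cannot be split between these entries, so HLA-DMB was not measured apart from HLA-DMA. CD74, the class II invariant chain, stood at 9.36 CPM with siRNA 1, 13.9 CPM with siRNA 2 and 14 CPM with control siRNA, and HLA-DRA, a defining class II chain, at 0.28 CPM with siRNA 1, 0.96 CPM with siRNA 2 and 0.56 CPM with control siRNA. Of 5 inhibitory ligands compared, with medians of 0.21 with siRNA 1 and 0.04 with siRNA 2, none was 1.5-fold from control. Over the list 3 of 5 were above control with each siRNA. CD47, the signal that limits phagocytosis, had log2 ratios at 0.21 with siRNA 1 and 0.17 with siRNA 2. PVR, by contrast, had -0.27 with siRNA 1 and 0.04 with siRNA 2.

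Genes that lie beside the class I genes on chromosome 6 were compared for 19 of 20, with medians of -0.10 with siRNA 1 and -0.11 with siRNA 2. IER3, an early response gene, was the 1 of them at least 1.5-fold lower, with siRNA 1, at 60.7 CPM with siRNA 1, 65.6 CPM with siRNA 2 and 96.4 CPM with control siRNA. RING1, a Polycomb protein, had log2 ratios at -0.39 with siRNA 1 and -0.29 with siRNA 2. DDX39B had 0.23 with siRNA 1 and -0.16 with siRNA 2. Over the list 6 of 19 were above control with siRNA 1 and 5 of 19 with siRNA 2, against 45.1% and 41.4% of all genes.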
